A study of Mus musculus with 12 samples.

Results

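The comparison described here is the genotype by medium interaction in cultured mouse mandibular fibrochondrocytes: how far the response of gene expression to a change of medium differed between cells lacking NG2/CSPG4 and wild type cells. It used all 12 libraries of the series and was computed for every gene with enough reads, 19118 of the 31075 in the deposited table. The 4 groups were NG2/CSPG4 knockout cells titled Opti (KO Opti), NG2/CSPG4 knockout cells titled Norm (KO Norm), wild type cells in Opti-MEM without serum (WT Opti) and wild type cells in AMEM with heat-inactivated fetal bovine serum (WT Norm), with 3 libraries each. All cells were primary cells digested from the mandibular condylar cartilage, the fibrous cartilage of the jaw joint, of pups 10 to 14 days old, and all media held glutamine, penicillin and Plasmocin. The labels give passage 4 for the harvest of RNA, whereas the methods have cells used earlier than that, and the difference could not be settled. Wild type mice were C57BL/6J, and the knockout came from a knockout-first allele of Cspg4 converted to a deletion allele with a reporter by a cross to a Cre line that the methods do not name, and was backcrossed to C57BL/6J. The basal medium changed together with the serum, so the loss of serum and the change of basal medium cannot be told apart. The methods state that the sequencing used 3 biological replicates. Nothing in the labels says whether the 3 libraries of a group came from separate animals or cultures. The tests' error term is the spread among these libraries alone.

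The 6 knockout libraries carry contradictory labels. Each of those titled Opti has the serum medium as its treatment entry, and each of those titled Norm has the serum-free medium, whereas title and entry agree in all 6 wild type libraries. Groups follow the titles throughout, and many results are also given with the knockout media exchanged, as the treatment entries have them. Other results, among them some list counts and single genes, are given by title only. Exchanging the media turns the sign of the knockout response and leaves its size unchanged. A gene whose interaction has the same sign under both readings therefore had a smaller estimated response in knockout than in wild type cells whichever label is right, and those genes are described first.

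NG2/CSPG4 is a large transmembrane chondroitin sulfate proteoglycan that binds type VI collagen outside the cell and presents platelet-derived growth factor to its receptors. Serum supplies growth factors, lipids and lysophospholipids, which in fibroblast-like cells drive immediate early genes, the actin-regulated transcription factor SRF and the cell cycle, and which hold down the cells' own cholesterol synthesis. A shortage of amino acids or stress of the endoplasmic reticulum raises the transcription factor ATF4, whose targets make and import amino acids and charge transfer RNAs.

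The 12 libraries held 51546504 to 71448484 counts. Levels are given as CPM, counts scaled to a common library size, for replicates 1 to 3 of each group, and they do not account for gene length. Cspg4 itself, the deleted gene, had 12.4, 10.5 and 12.97 CPM in KO Opti and 16.6, 10.8 and 11.8 CPM in KO Norm, and 147, 158 and 114 CPM in WT Opti and 176, 216 and 201 CPM in WT Norm, so every knockout library lay below every wild type library. Its interaction was 0.38 ± 0.23 on the log2 scale and was not called, though without KO Norm replicate 1 it was 0.582 and called (adjusted p = 0.0451). The first principal component (30.1% of the variance) set the 3 WT Norm libraries at 83.9 to 111, apart from the other 9 libraries at -53.4 to -21. Fibrochondrocyte genes were present in every library, among them Sox9 at 40.6 to 84.9 CPM and Col1a1 at 17910 to 82160 CPM, while Cdh5 of endothelium was at 0 to 0.18 CPM in 10 libraries, 0.712 CPM in WT Norm replicate 3 and 12.9 CPM in WT Norm replicate 2. Markers of other cell types set each WT Norm library apart. The 8 epithelial markers summed to 144, 105 and 3.41 CPM in WT Norm replicates 1 to 3, against 1.56 to 25 CPM in the other groups, and 4 of them fell in WT Opti. The 10 endothelial markers summed to 60.8 CPM in WT Norm replicate 2, against 4.8 to 14.1 CPM in the other libraries, and 7 fell in WT Opti. The 13 glia and neuron markers summed to 418 CPM in WT Norm replicate 3, against 55.1 to 112 CPM in the other libraries, and 10 fell in WT Opti. Of these markers, 3 epithelial, 3 endothelial and 4 glia and neuron genes are among those called lost by title in what follows. Without WT Norm replicates 1, 2 and 3 in turn, the interaction described next was called for 5479, 6087 and 5704 genes by title and the response was lost for 3275, 3603 and 3100, and the part of such cells in the results was not tested. The X-inactivation RNA Xist was at 217 to 450 CPM in KO Opti, against 33.3 to 58.7 CPM in KO Norm, and at 166 to 307 CPM in WT Opti, against 154 to 210.3 CPM in WT Norm. Y-linked genes summed to 73.5 to 82.1 CPM in KO Opti, against 113 to 129 CPM in KO Norm, and to 52.1 to 58.8 CPM in WT Opti, against 37.5 to 66.1 CPM in WT Norm. The 2 knockout groups therefore differed in their X- and Y-linked transcripts as well as in medium, and the interaction counts of gene lists by title and under both readings that moved by over 1.5 times in a fit with the Y-linked level as a covariate are given with their value in that fit. Mitochondrially encoded genes took 2.2 to 5.9% of the counts in KO Opti and 1.3 to 3% in the other libraries.

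Genes differed widely between the genotypes in their medium response. The interaction, the knockout response (KO Opti minus KO Norm) less the wild type response (WT Opti minus WT Norm), was called for 6007 genes by title (31.4% of the genes tested), 2750 of them positive (14.4%) and 3257 negative (17%), at an adjusted p under 0.05 in edgeR's quasi-likelihood test with Benjamini-Hochberg adjustment. With the knockout media taken from the treatment entries it was called for 6635 genes (34.7%), 3293 of them positive (17.2%) and 3342 negative (17.5%), and 3311 genes by title (17.3%) and 3726 by entry (19.5%) also passed 2-fold. A total of 2714 genes (14.2%) were called with the same sign under both readings, 1253 positive (6.55%) and 1461 negative (7.64%), and 539 (2.82%) with opposite signs. No set test was run on the gene lists below, and their counts are to be read against these shares of all genes. The medium response on its own was called for 3709 genes in knockout cells by title (19.4%), 1604 higher (8.39%) and 2105 lower (11%) in KO Opti, and for 7616 genes in wild type cells (39.8%), 3874 higher (20.3%) and 3742 lower (19.6%) in WT Opti. The shares of the called genes that were higher were 43.2% and 50.9%. The libraries of KO Opti and KO Norm did not overlap for 7378 genes (38.6%), and those of WT Opti and WT Norm for 9793 (51.2%). On the authors' FPKM values, with limma on log2(FPKM + 1), the shares higher were 71% in knockout and 70.1% in wild type cells. There, 25.2% rather than 49.6% of the interactions by entry were positive. The balance of directions thus differed between counts and FPKM. Measure and test changed together, and the cause was not tested. On counts with RLE factors the shares higher were 44.7% and 46.4%, and 52.6% of the interactions by entry were positive. The standard deviation of the response over all genes was 0.974 in knockout and 1.22 in wild type cells on the log2 scale. The count of knockout calls was 2091 without KO Opti replicate 1, 2255 without KO Opti replicate 3, 2252 without KO Norm replicate 2, 2139 without KO Norm replicate 3 and 1977 with the Y-linked covariate. The interaction by title was called for 3508 genes, and with the same sign under both readings for 1474, with that covariate.

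Genes with a called wild type response were sorted by the knockout response and the interaction. A response was lost where the interaction was called and the knockout response was not, reduced or amplified where both responses were called in the same direction with a called difference, turned where both were called in opposite directions with a called difference, kept where both were called in the same direction without a called difference, and open otherwise. By title, 3572 genes lost their response (18.7% of the genes tested), 258 had it reduced (1.35%), 50 amplified (0.262%), 764 turned (4%) and 853 kept (4.46%), while 2119 were open (11.1%). By entry the counts were 3662 lost (19.2%), 195 reduced (1.02%), 26 amplified (0.136%), 1161 turned (6.07%), 543 kept (2.84%) and 2029 open (10.6%). A response called in knockout cells only, with a called interaction, was gained by 947 genes by title (4.95%) and 1125 by entry (5.88%). Of the genes that lost their response by title, 2261 also lost it by entry. The 764 genes turned by title were by construction kept (543), reduced (195) or amplified (26) by entry. Where both responses were called, in 1925 genes, 1161 moved in the same direction by title and 764 in opposite directions. A kept call does not show equal responses: the 95% interval of the interaction by title lay within 1.5-fold for 324 of 580 kept genes that fell and 100 of 273 that rose in WT Opti.

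**Figure D1:**
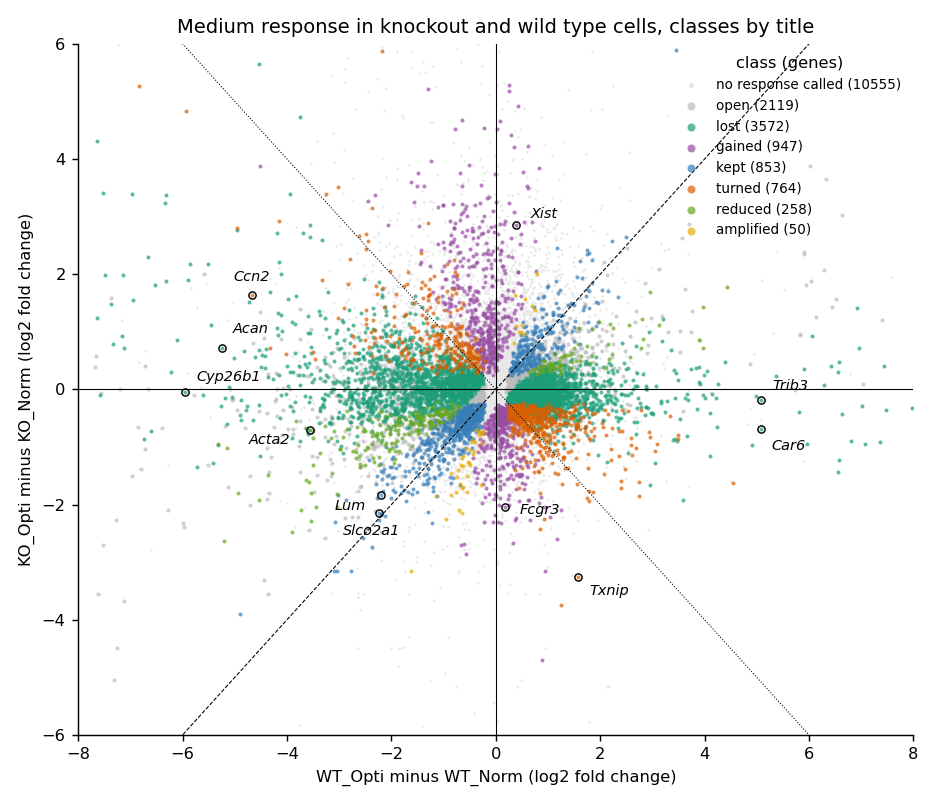
Each point is a gene, with the wild type medium response (WT Opti minus WT Norm, log2 fold change) on the horizontal axis and the knockout response by title (KO Opti minus KO Norm) on the vertical axis, coloured by class; the dashed line marks equal and the dotted line opposite responses, and 94 genes lie beyond the axes. Of the 3572 lost genes, among them Trib3 and Cyp26b1, all but 98 that fell and 14 that rose in WT Opti had an estimated knockout change under 2-fold, while Lum and Slco2a1 lie near the dashed line and Ccn2 and Txnip on opposite sides of the origin.

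The level of the knockout libraries was set against each wild type group, with contrasts added after seeing the data. Of the 2004 genes that rose in WT Opti and lost the response by title, the mean of the 6 knockout libraries lay nearer to WT Opti for 1392 and nearer to WT Norm for 612, on the log2 scale. Of the 1568 that fell in WT Opti, it lay nearer to WT Opti for 974 and nearer to WT Norm for 594. The median knockout response of these 2 sets was -0.12 and 0.11, against wild type medians of 0.79 and -1.38. The 95% interval of the knockout response lay within 1.5-fold for 1466 of the 2004 and 674 of the 1568. The knockout mean differed by the test from WT Norm for 8324 genes (43.5%) and from WT Opti for 5411 (28.3%). Among all genes with a called interaction by title, the group farthest from the median of the 4 group means was WT Norm for 2898, WT Opti for 1572, KO Opti for 998 and KO Norm for 539. The matching counts over all genes tested are not given here. These counts therefore do not show whether WT Norm was farthest more often among interaction genes than among other genes.

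Genes of the amino acid response mostly lost or turned their rise. Of 30 ATF4 targets and amino acid response genes, all tested, none rose and 10 fell in KO Opti, while 27 rose and 1 fell in WT Opti. The interaction was negative for 27 and positive for 1 by title, negative for 25 and positive for 2 by entry, and negative under both readings for 24. The median response was -0.29 in knockout and 1.79 in wild type cells. By title 18 members lost their response and 9 turned it. The 6 knockout libraries averaged nearer to WT Opti than to WT Norm for 29 of the 30. This measure varied among the lists described below. It held for 23 of 26 DNA replication genes and 21 of 29 lysosome genes. It held for only 5 of 26 mitosis genes, 5 of 23 SRF targets and 1 of 25 cholesterol synthesis genes.

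Trib3 (ENSMUSG00000032715, chr2:152337422-152344032), a pseudokinase that restrains AKT and ATF4, had 155, 190.1 and 171 CPM in KO Opti, against 188, 194 and 208 CPM in KO Norm, and 264, 299.7 and 306 CPM in WT Opti, against 6.13, 15.2 and 3.99 CPM in WT Norm. Its knockout groups overlapped, while the 3 WT Norm libraries lay far below the other 9. The response was -0.19 ± 0.32 in knockout and 5.09 ± 0.38 in wild type cells, and the interaction -5.28 ± 0.48 by title (adjusted p = 6.52e-06) and -4.90 ± 0.48 by entry. Chac1 (ENSMUSG00000027313, chr2:119351229-119354381), which breaks down glutathione, had 95.1, 98.5 and 89.7 CPM in KO Opti and 102, 107 and 114 CPM in KO Norm, and 119, 141 and 137 CPM in WT Opti and 8.63, 14.1 and 8.197 CPM in WT Norm. Its responses of -0.19 ± 0.16 in knockout and 3.68 ± 0.18 in wild type cells gave an interaction of -3.87 ± 0.24 (adjusted p = 2.64e-07). Atf3, a stress-induced transcription factor, likewise had 20.4, 21.1 and 18.4 CPM in KO Opti, against 18.6, 21.4 and 24.2 CPM in KO Norm, and 26.3, 26.2 and 28.7 CPM in WT Opti, against 4.76, 5.02 and 4.21 CPM in WT Norm, with an interaction of -2.64 ± 0.17 by title and -2.44 ± 0.17 by entry. Asns, the enzyme that makes asparagine, turned by title and was reduced by entry, with 197, 213 and 208 CPM in KO Opti and 284, 354 and 349.7 CPM in KO Norm, and 212, 229 and 249 CPM in WT Opti and 68.5, 76.8 and 64.7 CPM in WT Norm. Its highest group was KO Norm and its lowest WT Norm, and the interaction was -2.40 ± 0.15 by title and -1.04 ± 0.15 by entry. The amino acid carriers Slc7a3 and Slc6a9 had the same pattern, with interactions of -3.81 ± 0.20 and -3.14 ± 0.15 by title and -2.87 ± 0.20 and -2.42 ± 0.15 by entry.

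Aminoacyl-tRNA synthetases, which load transfer RNAs with amino acids, fell in the knockout by title. Of 19 tested of 20 listed, none rose and 15 fell in KO Opti, while 12 rose and 2 fell in WT Opti. The interaction was negative for 15 by title and for 8 under both readings, and by entry it was positive for 4. Aars had 445, 567 and 521 CPM in KO Opti, against 700.4, 601 and 614 CPM in KO Norm, and 521, 510.3 and 484 CPM in WT Opti, against 177, 182 and 168 CPM in WT Norm, so only the WT Norm libraries were low. Its interaction was -1.84 ± 0.15 by title (adjusted p = 2.1e-06) and -1.20 ± 0.15 by entry. Sars and Wars followed, at -1.95 ± 0.11 and -2.15 ± 0.14 by title and -1.43 ± 0.11 and -0.69 ± 0.14 by entry.

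The window from 250 bases before to 50 bases after the annotated start was searched in the promoters of RefSeq (GRCm38.p6) for TGATGNAA, the core of the CCAAT enhancer-binding protein and ATF response element, on both strands. It was found in 7 of 25 ATF4 list members with a promoter (28%) and in 5 of 12 aminoacyl-tRNA synthetases (41.7%). It was found in 4.51% of all 27025 promoters and in 2.89% of the 12667 promoters of tested genes, to which these lists belong. Stretches around the match are shown for 4 genes that lost or turned their response by title. The search itself fixed the matching letters, so their likeness is not a result. Capitals mark the match, which in Trib3, Chac1 and Aars is the reverse complement because the element lies on the other strand.
Trib3, chr2:152344028-152344057, minus strand: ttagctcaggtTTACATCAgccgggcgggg
Chac1, chr2:119351025-119351080, plus strand: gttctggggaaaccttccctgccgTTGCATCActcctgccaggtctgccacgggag
Asns, chr6:7693210-7693256, minus strand: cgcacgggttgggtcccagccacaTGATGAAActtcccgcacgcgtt
Aars, chr8:111033840-111033869, plus strand: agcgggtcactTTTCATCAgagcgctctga
Chac1, Asns and Aars were chosen for the match after their values were seen, as were Ccnb2, Plk1, Vcl, Isg15 and Ifit1 for the other elements shown. A match describes the letters and not binding.

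Genes of the lysosome and its regulators rose nearly throughout in wild type cells and, by title, seldom in knockout cells. Of 29 genes, 2 rose and 13 fell in KO Opti, while 28 rose in WT Opti and none fell. The interaction was negative for 27 by title and 21 by entry, 19 of them under both readings, and the medians were -0.31 in knockout and 1.14 in wild type cells. By title 12 lost, 12 turned and 2 reduced the response, and by entry 13 lost, 6 reduced, 6 kept and 2 turned it. Of 19 myeloid markers, 18 were lower in KO Opti, while 3 rose and 2 fell in WT Opti. None had an interaction called with the same sign under both readings. The markers' summed level was 229 to 260 CPM in KO Opti, against 657 to 714 CPM in KO Norm. It was 747 to 1310 CPM in WT Opti, against 652 to 799 CPM in WT Norm. Their part in the lysosome values was not tested. Gpnmb, a lysosome-associated glycoprotein that macrophages also express, had 441, 590 and 497 CPM in KO Opti and 667, 689 and 629 CPM in KO Norm, and 1275, 1292 and 1232 CPM in WT Opti and 213, 229 and 211 CPM in WT Norm. Its WT Opti libraries were the highest and its WT Norm libraries the lowest, with the knockout libraries between them. The interaction was -2.92 ± 0.15 by title (adjusted p = 1.14e-07) and -2.16 ± 0.15 by entry. Sqstm1, the autophagy receptor p62, had 833, 1074 and 913 CPM in KO Opti, against 1442, 1541 and 1500 CPM in KO Norm, and 1498, 1554 and 1629 CPM in WT Opti, against 315, 358 and 325 CPM in WT Norm. KO Norm lay close to WT Opti and KO Opti between the wild type groups, and the interaction was -2.90 ± 0.15 by title and -1.56 ± 0.15 by entry. Atp6v0d2, a subunit of the vacuolar proton pump that is abundant in osteoclasts and macrophages, was at 2.59, 2.77 and 2.98 CPM in KO Opti and 8.16, 10.2 and 7.4 CPM in KO Norm, and 32.2, 42.8 and 42.01 CPM in WT Opti and 1.17, 2.604 and 1.17 CPM in WT Norm, an interaction of -6.18 ± 0.39 by title and -2.93 ± 0.37 by entry.

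Antioxidant genes and FOXO targets mostly had negative interactions too. Among 28 genes of the NRF2 and oxidative stress list (29 listed), 3 rose and 5 fell in KO Opti, against 18 and 3 in WT Opti, and the interaction was negative for 15 and positive for 2 by title and had the same sign by entry for 12 and 2. None was positive by title with the Y-linked covariate or on log2(FPKM + 1), and none was positive under both readings without KO Opti replicate 2 or 3, KO Norm replicate 3, WT Opti replicate 2 or WT Norm replicate 1. Hmox1, heme oxygenase, had 542, 609 and 534 CPM in KO Opti, against 906, 1094 and 998 CPM in KO Norm, and 1426, 1666 and 1761 CPM in WT Opti, against 186, 239 and 203 CPM in WT Norm. It turned by title, with the knockout groups between the wild type groups, at an interaction of -3.78 ± 0.18 by title and -2.12 ± 0.17 by entry. Srxn1, which repairs oxidised peroxiredoxins, lost its response at -1.68 ± 0.13 by title and -1.18 ± 0.13 by entry. Of 24 FOXO targets and quiescence genes, 4 rose and 7 fell in KO Opti, 16 rose and 3 fell in WT Opti, 16 had a negative and 2 a positive interaction by title, and 10 a negative one under both readings. With the Y-linked covariate 7 were negative by title and 4 under both readings. Pik3ip1, a negative regulator of PI3-kinase, had 31.3, 29.98 and 31.4 CPM in KO Opti and 38.1, 41.6 and 40.9 CPM in KO Norm, and 77.99, 76.1 and 87.5 CPM in WT Opti and 22.7, 25.1 and 23.99 CPM in WT Norm, so all its knockout libraries lay well below WT Opti.

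Several single genes rose strongly in WT Opti with no called response in knockout cells. Car6 (ENSMUSG00000028972, chr4:150187015-150201332), a secreted carbonic anhydrase, had 26.6, 30.8 and 23.3 CPM in KO Opti, against 36.6, 43.2 and 49.4 CPM in KO Norm, and 25.1, 28.3 and 31.6 CPM in WT Opti, against 0.505, 1.799 and 0.108 CPM in WT Norm. WT Norm was the only group near 0, and the interaction was -5.75 ± 0.64 by title (adjusted p = 2.79e-05) and -4.39 ± 0.63 by entry. Gadd45a (ENSMUSG00000036390, chr6:67035096-67037406), a growth arrest and DNA damage gene, had 135, 129 and 121 CPM in KO Opti and 144, 146 and 138 CPM in KO Norm, and 140.3, 157 and 162 CPM in WT Opti and 7.65, 13.5 and 7.27 CPM in WT Norm. Here too 9 libraries shared a level and the 3 WT Norm libraries lay below it, for an interaction of -4.16 ± 0.26 by title and -3.86 ± 0.26 by entry. Hsd17b1, a steroid dehydrogenase, and Cyb5r2, a cytochrome b5 reductase, gave -5.11 ± 0.64 and -4.07 ± 0.23 by title and -4.88 ± 0.64 and -3.86 ± 0.23 by entry.

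**Figure D2:**
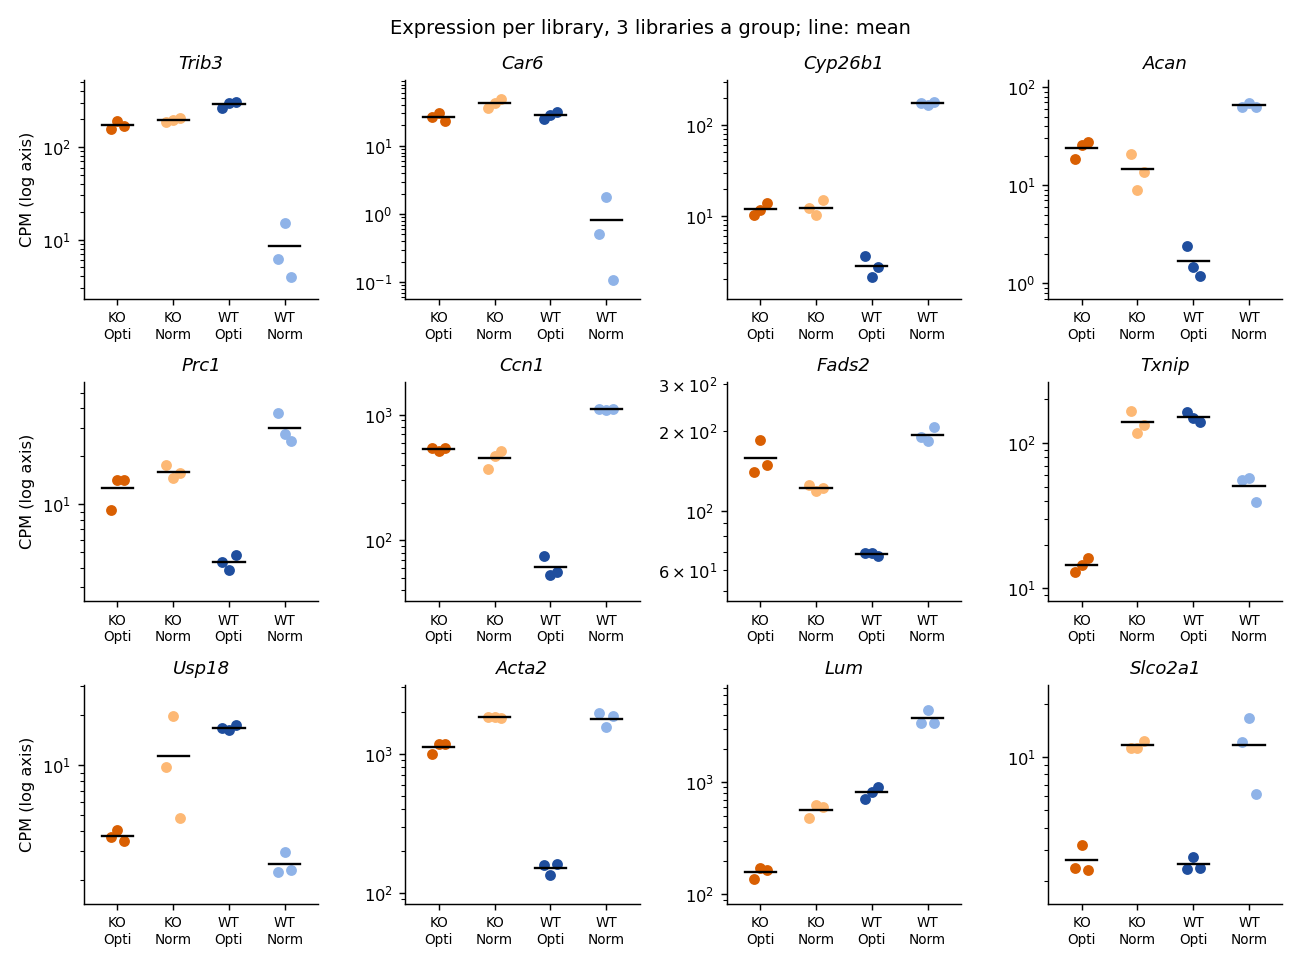
CPM in each library (log axis), 3 libraries a group with the mean as a line, for 12 genes named in the text. In Trib3 and Car6 only WT Norm is low, in Cyp26b1 only WT Norm is high, and in Fads2 and Txnip the knockout groups by title stand in the opposite order to the wild type groups.

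Proliferation genes responded less in knockout cells. Of 26 genes of the mitosis and spindle list, 7 fell and none rose in KO Opti, while all 26 fell in WT Opti. The interaction was positive for 25 by title and 26 by entry, 25 of them under both readings, with medians of -0.45 in knockout and -2.75 in wild type cells. By title 19 lost the response, 6 had it reduced and 1 kept it, and by entry 19 lost and 7 turned it. Prc1 (ENSMUSG00000038943, chr7:80294450-80316259), which bundles microtubules in the dividing spindle, had 9.23, 14.3 and 14.3 CPM in KO Opti, against 17.5, 14.6 and 15.8 CPM in KO Norm, and 4.34, 3.85 and 4.796 CPM in WT Opti, against 37.3, 27.6 and 24.96 CPM in WT Norm. The 6 knockout libraries lay between the wild type groups without overlap with either, and the interaction was 2.45 ± 0.27 by title (adjusted p = 2.68e-05) and 3.13 ± 0.27 by entry. Ccna2, cyclin A2, had 12.3, 12.97 and 14.5 CPM in KO Opti and 14.3, 14.2 and 13.8 CPM in KO Norm, and 3.18, 3.82 and 3.65 CPM in WT Opti and 41.8, 21.3 and 22.2 CPM in WT Norm, an interaction of 2.92 ± 0.31 by title and 3.09 ± 0.31 by entry. Ccnb2, cyclin B2, was reduced by title, at -1.07 ± 0.24 in knockout and -2.74 ± 0.26 in wild type cells. The mitotic kinase gene Plk1 had an interaction of 2.32 ± 0.43 by title (adjusted p = 0.0013), and adjusted p = 0.0713 with the Y-linked covariate.

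DNA replication genes had mostly positive interactions as well. Of 26, 4 fell and 1 rose in KO Opti, 19 fell and 2 rose in WT Opti, and the interaction was positive for 19 and negative for 2 by title and positive for 14 and negative for 1 under both readings. With the Y-linked covariate 9 were positive by title, and 9 positive and none negative under both readings. Uhrf1, which maintains DNA methylation, had 9.27, 12.2 and 11.2 CPM in KO Opti, against 9.91, 7.45 and 7.74 CPM in KO Norm, and 3.54, 3.67 and 4.198 CPM in WT Opti, against 38.03, 17.6 and 22.7 CPM in WT Norm, so the spread among WT Norm libraries was wide but did not reach the knockout libraries. Its interaction was 3.16 ± 0.34 by title (adjusted p = 2.41e-05). Cdc45, part of the replicative helicase, had 4.44, 4.33 and 3.88 CPM in KO Opti and 3.92, 3.91 and 4.63 CPM in KO Norm, and 2.81, 2.703 and 2.704 CPM in WT Opti and 12.3, 9.19 and 10.7 CPM in WT Norm, an interaction of 1.99 ± 0.22 by title and 1.95 ± 0.22 by entry. Ccnd1, the growth factor-regulated cyclin D1, had 445, 522 and 495 CPM in KO Opti, against 491, 499 and 515 CPM in KO Norm, and 376, 348 and 341 CPM in WT Opti, against 1043, 1053 and 1037 CPM in WT Norm. Its knockout groups overlapped at a level above WT Opti and below WT Norm, and its interaction was 1.51 ± 0.12 by title (adjusted p = 2.55e-06) and 1.60 ± 0.12 by entry.

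The cell cycle homology region, TTTGAA, was searched for on either strand of the same promoter window. It was found in 16 of 21 mitosis list promoters (76.2%), in 20.2% of all promoters and in 14.8% of tested genes' promoters. It is shown in capitals for 3 members whose fall was lost or reduced by title in knockout cells.
Prc1, chr7:80294434-80294463, plus strand: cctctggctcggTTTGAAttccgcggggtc
Ccnb2, chr9:70421692-70421745, minus strand: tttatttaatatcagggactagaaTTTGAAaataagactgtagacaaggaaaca
Plk1, chr7:122159453-122159482, plus strand: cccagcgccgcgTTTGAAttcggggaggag

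Targets of SRF and its coactivator MRTF, most of them parts of the contractile cytoskeleton, mostly lost or reduced their fall, 11 and 7 of them by title, while 3 turned it. Of 23 members, 8 fell and 3 rose in KO Opti, while 22 fell in WT Opti and none rose. The interaction was positive for 21 and negative for 1 by title and positive for 22 by entry, 21 of them under both readings, with medians of -0.22 in knockout and -2.07 in wild type cells. Acta2, smooth muscle actin, had 1001, 1181 and 1179 CPM in KO Opti and 1823, 1833 and 1801 CPM in KO Norm, and 158, 134 and 161 CPM in WT Opti and 1955, 1557 and 1853 CPM in WT Norm. The fall was -0.70 ± 0.12 in knockout and -3.56 ± 0.13 in wild type cells, and WT Opti lay far below the other groups, at an interaction of 2.87 ± 0.17 by title (adjusted p = 2.15e-07) and 4.26 ± 0.17 by entry. Myl9, the regulatory myosin light chain, had 114, 124 and 133 CPM in KO Opti, against 178, 210.2 and 205 CPM in KO Norm, and 24.3, 21.6 and 27.3 CPM in WT Opti, against 328, 249.8 and 329 CPM in WT Norm, an interaction of 2.96 ± 0.18 by title and 4.31 ± 0.19 by entry. Vcl, vinculin of focal adhesions, lost its response, with 246, 322 and 327 CPM in KO Opti and 312, 156 and 185 CPM in KO Norm, and 77.6, 65.6 and 53.4 CPM in WT Opti and 526, 499.7 and 404 CPM in WT Norm. Its knockout groups overlapped, and all 6 knockout libraries lay above WT Opti and below WT Norm. Srf itself had 70.7, 71.6 and 74.9 CPM in KO Opti, against 39.98, 39.6 and 43.3 CPM in KO Norm, and 21.6, 23.2 and 24.98 CPM in WT Opti, against 81.9, 77.3 and 82.4 CPM in WT Norm. It rose in KO Opti and fell in WT Opti by title, for an interaction of 2.61 ± 0.12, and fell less by entry, at 0.97 ± 0.12. Lmod1, leiomodin of smooth muscle, had 6.31, 8.86 and 8.91 CPM in KO Opti and 10.6, 7.999 and 10.7 CPM in KO Norm, and 1.43, 0.963 and 1.73 CPM in WT Opti and 40.9, 32.9 and 38.5 CPM in WT Norm, an interaction of 4.49 ± 0.30 by title and 5.05 ± 0.30 by entry.

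The CArG box, the site that SRF recognises, was searched for on either strand. It was found in 6 of 19 promoters of the list (31.6%), in 1.81% of all promoters and in 1.63% of tested genes' promoters. It is shown in capitals for Srf, whose stretch holds a pair of boxes, and for targets that were reduced and lost by title.
Srf, chr17:46556211-46556268, minus strand: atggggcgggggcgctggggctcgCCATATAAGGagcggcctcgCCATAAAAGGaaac
Myl9, chr2:156775279-156775336, plus strand: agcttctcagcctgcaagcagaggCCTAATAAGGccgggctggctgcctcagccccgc
Vcl, chr14:20929148-20929204, plus strand: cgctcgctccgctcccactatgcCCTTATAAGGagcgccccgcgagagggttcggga

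Immediate early genes, which growth factors induce within minutes, behaved similarly. Of 24, 11 fell and none rose in KO Opti, 20 fell and 3 rose in WT Opti, and the interaction was positive for 18 and negative for 2 under both readings. Jun had 85.98, 111 and 93.8 CPM in KO Opti, against 106, 108 and 108 CPM in KO Norm, and 43.9, 34.4 and 37.4 CPM in WT Opti, against 122, 134 and 136 CPM in WT Norm, an interaction of 1.61 ± 0.15 by title and 1.91 ± 0.16 by entry. Plaur, the urokinase receptor, was reduced by title, at -0.37 ± 0.10 in knockout, against -2.84 ± 0.11 in wild type cells. The matricellular gene Ccn1 (ENSMUSG00000028195, chr3:145646976-145649981), a target of YAP, had 539, 515 and 543 CPM in KO Opti and 371, 467 and 509.6 CPM in KO Norm, and 75.3, 53.4 and 56.3 CPM in WT Opti and 1101, 1099 and 1113 CPM in WT Norm. Every knockout library lay above WT Opti and below WT Norm, for an interaction of 4.41 ± 0.20 by title (adjusted p = 6.37e-08) and 3.92 ± 0.20 by entry. Ccn2, connective tissue growth factor, rose in KO Opti and fell in WT Opti, with 502, 514 and 576 CPM in KO Opti, against 186, 163 and 162 CPM in KO Norm, and 29.1, 15.2 and 15.6 CPM in WT Opti, against 595, 425 and 512 CPM in WT Norm. WT Opti was the low group, and the interaction was 6.32 ± 0.32 by title and 3.04 ± 0.30 by entry. Of 20 YAP and TAZ targets as a whole, 11 had a positive and 1 a negative interaction by title and 6 a positive one under both readings, and none a negative one with the Y-linked covariate.

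Skeletal lists differed in how many genes lost their response, 9 of 17 bone genes, 6 of 24 cartilage genes and 2 of 12 tendon genes by title, against 18.7% of all genes. A further 4 cartilage genes and 2 bone genes turned it, and 3 of each kept it. Cyp26b1 (ENSMUSG00000063415, chr6:84571414-84593908), which degrades retinoic acid, had 10.1, 11.7 and 13.95 CPM in KO Opti and 12.1, 10.1 and 14.8 CPM in KO Norm, and 3.61, 2.13 and 2.72 CPM in WT Opti and 177, 165 and 181 CPM in WT Norm. WT Norm was the only high group and the knockout groups overlapped, at an interaction of 5.90 ± 0.27 by title (adjusted p = 6.37e-08) and 5.99 ± 0.27 by entry. Acan (ENSMUSG00000030607, chr7:79053483-79115099), aggrecan of the cartilage matrix, had 18.3, 25.7 and 27.7 CPM in KO Opti, against 20.8, 8.93 and 13.7 CPM in KO Norm, and 2.41, 1.48 and 1.195 CPM in WT Opti, against 62.9, 69.2 and 62.7 CPM in WT Norm, an interaction of 5.97 ± 0.43 by title (adjusted p = 8.98e-07) and 4.53 ± 0.42 by entry. Across the cartilage list, 24 tested of 26 listed, 2 fell and 6 rose in KO Opti, 15 fell and 2 rose in WT Opti, and the interaction was positive for 12 by title and 8 under both readings. Panx3, a channel of the chondrocyte and osteoblast lineages, had 12.04, 15.7 and 17.7 CPM in KO Opti and 10.5, 9.46 and 10.02 CPM in KO Norm, and 5.79, 9.82 and 8.6 CPM in WT Opti and 139.7, 229.8 and 174 CPM in WT Norm. Only WT Norm was high, and its interaction was 5.09 ± 0.31 by title. Sp7, the osteoblast transcription factor osterix, had 19.2, 24.8 and 25.6 CPM in KO Opti, against 26.8, 22.1 and 31.1 CPM in KO Norm, and 17.3, 17.9 and 16.9 CPM in WT Opti, against 124, 148 and 139.5 CPM in WT Norm, with overlapping knockout groups and an interaction of 2.78 ± 0.19 by title and 3.18 ± 0.20 by entry. Tnfrsf11b, the decoy receptor osteoprotegerin, was at 41.6, 49.98 and 43.1 CPM in KO Opti and 41.8, 39.1 and 35.2 CPM in KO Norm, and 5.51, 4.82 and 5.99 CPM in WT Opti and 100.4, 136 and 99.8 CPM in WT Norm, an interaction of 4.58 ± 0.20 by title and 4.15 ± 0.20 by entry. Of 17 bone genes tested of 18 listed, 3 fell and 3 rose in KO Opti, 12 fell and 3 rose in WT Opti, and 8 had a positive and 1 a negative interaction under both readings, against 5 positive with the Y-linked covariate.

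Among 35 signalling genes of the TGF-beta and BMP families the interaction by title was positive for 19 and negative for none, and 12 were positive under both readings, while by entry 16 were positive and 7 negative. Of the alternatives, 1 or 2 negative calls by title arose on log2(FPKM + 1), with the replicate block and without KO Opti replicate 1 or 2, KO Norm replicate 1, or WT Norm replicate 2 or 3. Id1 and Id3, targets of BMP that inhibit differentiation factors, rose in KO Opti and fell in WT Opti by title. Id3 had 59, 49.3 and 56.8 CPM in KO Opti, against 28.99, 34.3 and 37.1 CPM in KO Norm, and 6.09, 4.93 and 3.05 CPM in WT Opti, against 101, 86.8 and 96.9 CPM in WT Norm. WT Norm was highest, KO Opti next and WT Opti lowest, with interactions of 5.05 ± 0.28 for Id3 and 3.65 ± 0.21 for Id1 by title and 3.62 ± 0.27 and 1.81 ± 0.21 by entry. Fgfr3, a receptor for fibroblast growth factors that is high in growth cartilage, had 14.1, 12.5 and 14.7 CPM in KO Opti and 11.8, 7.21 and 10.4 CPM in KO Norm, and 11.3, 15.1 and 10.3 CPM in WT Opti and 87.4, 83 and 87.1 CPM in WT Norm, an interaction of 3.30 ± 0.25 by title (adjusted p = 1.35e-06). Frzb and Nkd2, inhibitors of Wnt signalling, and Draxin, a secreted guidance cue and Wnt antagonist, were high in WT Norm only, with interactions of 4.44 ± 0.48, 2.32 ± 0.25 and 5.22 ± 0.35 by title. Slc8a3, a sodium and calcium exchanger, had 0.313, 1.11 and 0.629 CPM in KO Opti, against 0.882, 1.19 and 0.74 CPM in KO Norm, and 1.51, 2.11 and 2.08 CPM in WT Opti, against 43.2, 68.2 and 58.7 CPM in WT Norm, an interaction of 4.45 ± 0.48 by title and 5.34 ± 0.48 by entry.

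**Figure D3:**
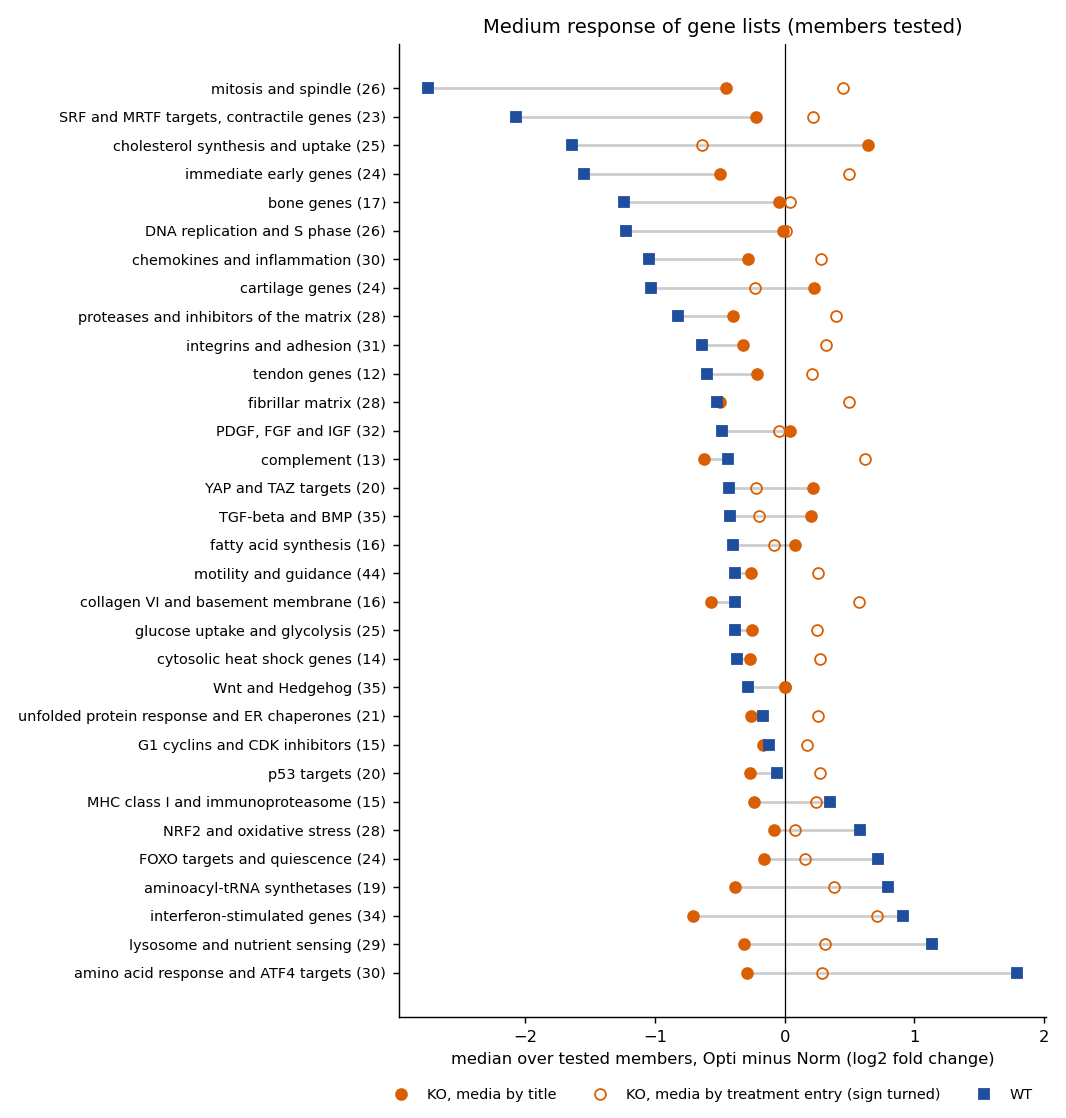
Median medium response (Opti minus Norm, log2 fold change) over the tested members of each gene list, with knockout by title as a filled circle, knockout by treatment entry (sign turned) as an open circle and wild type as a square. In the mitosis list the knockout medians of -0.45 and, by entry, the same size with the other sign stand far from the wild type median of -2.75, whereas in fibrillar matrix the knockout median by title lies on that of wild type.

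Cholesterol synthesis turned by title. Of 25 genes of cholesterol synthesis and uptake, 20 rose and 1 fell in KO Opti, while 22 fell in WT Opti and none rose. By title 20 turned and 2 lost the response, and the interaction was positive for 22 and negative for 1. By entry 14 were reduced, 6 kept and 2 lost, with 17 positive interactions, and 16 were positive under both readings. The summed level of the list was 2830 to 3560 CPM in KO Opti, against 1840 to 2070 CPM in KO Norm, and 852 to 888 CPM in WT Opti, against 2330 to 2510 CPM in WT Norm. KO Opti was the highest group and WT Opti the lowest. The median response was 0.64 in knockout by title and -1.64 in wild type cells. In fatty acid synthesis, 6 of 16 genes had a positive and 1 a negative interaction by title. Fads2, a fatty acid desaturase, had 141, 185 and 149 CPM in KO Opti and 125, 119 and 121 CPM in KO Norm, and 69.5, 69.1 and 67.5 CPM in WT Opti and 189.6, 183 and 206 CPM in WT Norm. It turned by title, at an interaction of 1.87 ± 0.14 (adjusted p = 1.57e-06), and was reduced by entry. Scd1, the stearoyl-CoA desaturase, lost its response, at 1.65 ± 0.16 by title.

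Interferon-stimulated genes had negative interactions by title. Of 34 tested of 35 listed, none rose and 10 fell in KO Opti, and 20 rose and none fell in WT Opti. The interaction was negative for 24 by title, and for 10 under both readings, with medians of -0.71 in knockout and 0.91 in wild type cells. By title 12 lost and 7 turned their response, and by entry 9 lost and 6 kept it. Usp18, which dampens interferon signalling, had 3.65, 4.03 and 3.47 CPM in KO Opti, against 9.704, 19.7 and 4.78 CPM in KO Norm, and 16.7, 16.3 and 17.5 CPM in WT Opti, against 2.24, 2.97 and 2.31 CPM in WT Norm. WT Opti was high in all libraries, whereas KO Norm was widely spread, its replicate 2 being the highest. Without that library, 21 genes had a negative interaction by title and 15 under both readings, and the knockout median was -0.235. With the Y-linked covariate 12 were negative by title and 5 under both readings. The interaction of Usp18 was -4.36 ± 0.52 by title (adjusted p = 5.34e-05) and -1.13 ± 0.51 by entry (adjusted p = 0.104). Isg15, a ubiquitin-like protein, and Ifit1, which binds foreign RNA, had the same KO Norm replicate 2 highest within their group, with interactions of -3.62 ± 0.49 and -4.12 ± 0.55 by title and 0.14 ± 0.48 and -0.68 ± 0.53 by entry. Irf9, the DNA-binding part of the interferon-activated complex, lost its response under both readings, at 44.9, 42.2 and 40.1 CPM in KO Opti and 40.2, 50.2 and 36.1 CPM in KO Norm, and 54.4, 53.04 and 55.9 CPM in WT Opti and 19.6, 19.4 and 16.6 CPM in WT Norm.

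The core of the interferon-stimulated response element, GAAA repeated after 2 bases of any kind, was searched for on either strand. It was found in 16 of 26 promoters of the list (61.5%), in 3.99% of all promoters and in 3.73% of tested genes' promoters. Capitals mark it in 2 members that turned by title. The Isg15 stretch holds overlapping copies, and the Ifit1 stretch holds a pair on the other strand.
Isg15, chr4:156200863-156200920, minus strand: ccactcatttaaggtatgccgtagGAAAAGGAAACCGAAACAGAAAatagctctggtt
Ifit1, chr19:34640780-34640837, plus strand: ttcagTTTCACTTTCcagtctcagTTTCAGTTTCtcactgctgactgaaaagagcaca

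Other genes turned outside these pathways. Txnip, an inhibitor of glucose uptake that responds to glucose, had 12.95, 14.4 and 16.1 CPM in KO Opti, against 165, 118 and 133 CPM in KO Norm, and 165, 149 and 141 CPM in WT Opti, against 55.4, 57.7 and 39.2 CPM in WT Norm. KO Opti lay below every other library, and the interaction was -4.84 ± 0.23 by title (adjusted p = 7.67e-08) and 1.68 ± 0.22 by entry, where the response was amplified. Crabp1, a carrier of retinoic acid, was likewise lowest in KO Opti, with 0.768, 0.59 and 0.822 CPM in KO Opti and 8.01, 12.01 and 9.39 CPM in KO Norm, and 15.2, 12.7 and 16.1 CPM in WT Opti and 4.93, 6.57 and 7.14 CPM in WT Norm, an interaction of -4.99 ± 0.29 by title and 2.51 ± 0.29 by entry. Dio3, which inactivates thyroid hormone, ran the other way, with 63.4, 74.9 and 74.9 CPM in KO Opti, against 17.6, 14.8 and 18.7 CPM in KO Norm, and 8.86, 8.51 and 6.93 CPM in WT Opti, against 38.2, 24.2 and 37.3 CPM in WT Norm. KO Opti was its highest group and WT Opti its lowest. The interaction was 4.10 ± 0.24 by title (adjusted p = 2.59e-07) and -0.03 ± 0.24 by entry (adjusted p = 0.947), so its response was turned by title and kept by entry. The cell cycle inhibitor gene Cdkn2a, the apoptosis gene Bbc3 and the death receptor gene Fas also turned by title and were kept by entry, at -1.71 ± 0.16, -2.47 ± 0.23 and 1.74 ± 0.19 by title and 0.42 ± 0.16, -0.30 ± 0.22 and -0.45 ± 0.19 by entry.

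**Figure D4:**
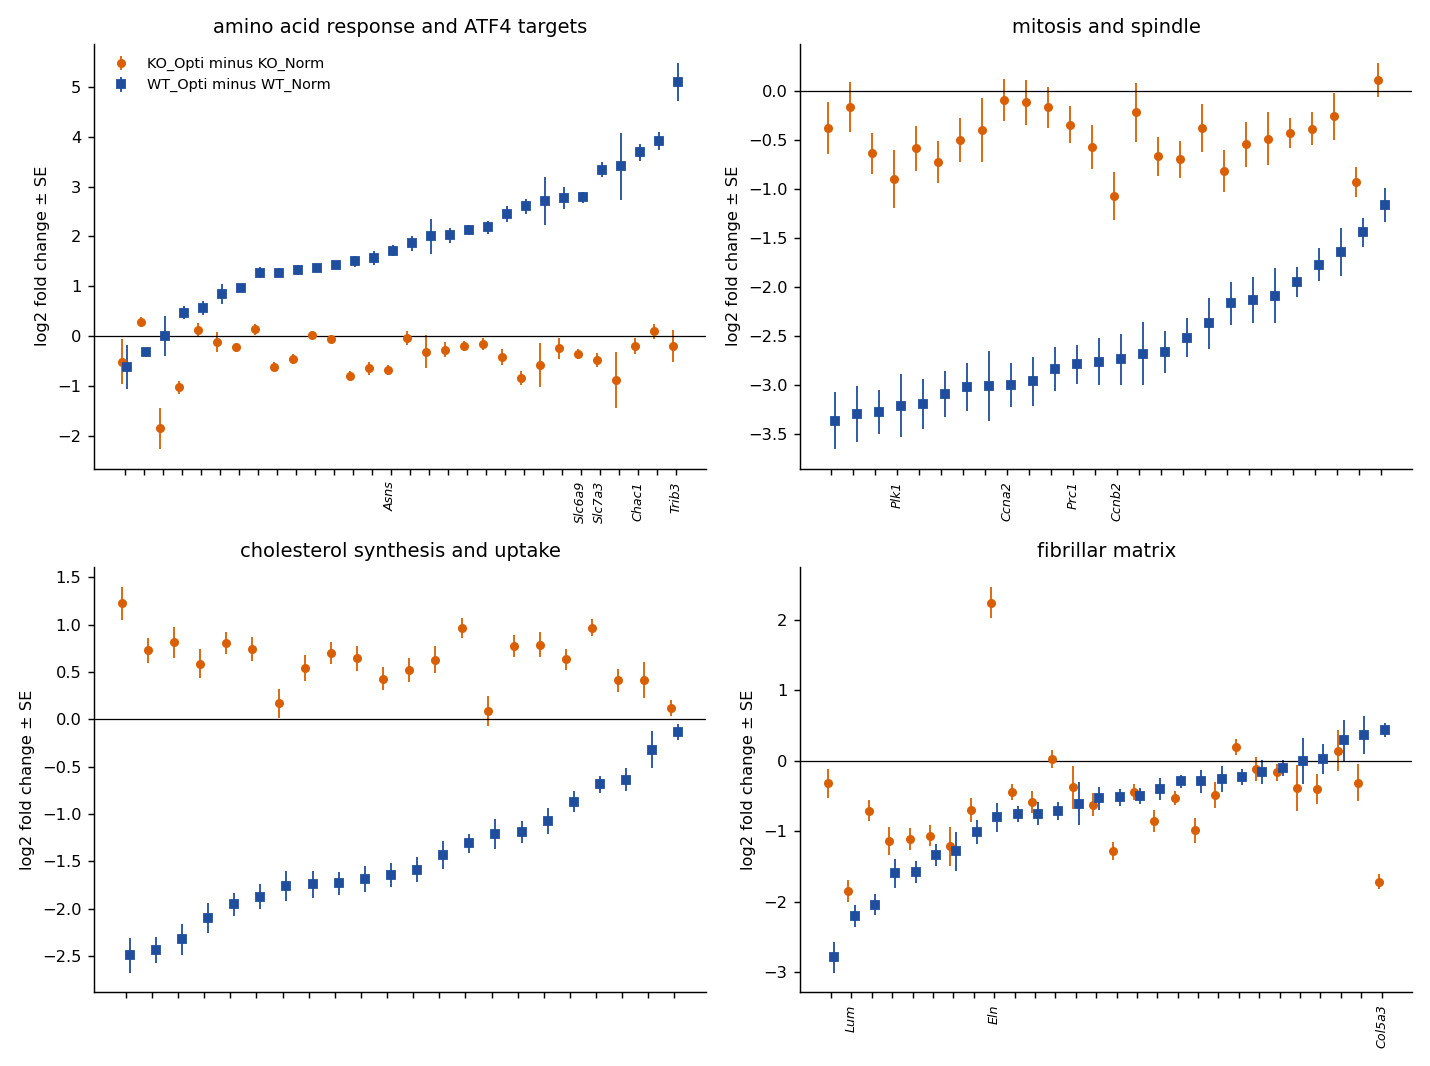
Medium response (Opti minus Norm, log2 fold change ± SE) of each member in knockout cells by title (circles) and wild type cells (squares) for 4 lists, with genes named in the text labelled and 3 members of cholesterol synthesis and uptake not drawn. Knockout values of the ATF4 and mitosis lists mostly lie nearer 0 than the wild type values. Of the 25 cholesterol synthesis genes, drawn or not, 20 rose and 1 fell in KO Opti. In fibrillar matrix Eln and Col5a3 lie on opposite sides of 0 in the 2 genotypes while 11 of 28 genes are kept.

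Fibrillar matrix genes with a wild type response were mostly kept by title and turned by entry. Of 28 fibrillar matrix genes, 16 fell and 1 rose in KO Opti, and 16 fell and 1 rose in WT Opti. By title 11 were kept and 2 turned, with 4 positive and 3 negative interactions, against 14.4% positive and 17% negative among all genes tested. By entry 13 turned, with 19 positive and 1 negative interaction, and 3 were positive under both readings, against 5 without KO Norm replicate 1. Lum, lumican of collagen fibrils, had 138, 171 and 165 CPM in KO Opti and 477, 626 and 597 CPM in KO Norm, and 716, 825 and 917 CPM in WT Opti and 3389, 4470 and 3411 CPM in WT Norm. The groups stepped down with Opti in each genotype, and KO Norm lay below WT Opti. The response was -1.84 ± 0.15 in knockout and -2.20 ± 0.16 in wild type cells, with an interaction of 0.35 ± 0.21 by title (95% interval -0.11 to 0.82, adjusted p = 0.225) and 4.04 ± 0.22 by entry (adjusted p = 1.31e-07). Eln, elastin, and Col5a3, a chain of type V collagen, were the pair that turned by title. Eln had 6.45, 6.85 and 6.1 CPM in KO Opti, against 1.44, 1.56 and 1.095 CPM in KO Norm, and 12.5, 11.5 and 11.1 CPM in WT Opti, against 15.4, 28.5 and 17.2 CPM in WT Norm, and its KO Norm libraries were the lowest. Col5a3 had 54.01, 52.3 and 55.3 CPM in KO Opti and 202, 154 and 173 CPM in KO Norm, and 226, 213 and 202 CPM in WT Opti and 146, 168 and 158 CPM in WT Norm, and KO Opti was its low group.

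Type VI collagen, to which NG2/CSPG4 binds, was kept by title in all 3 of its chains among the study genes. Col6a1 had 1044, 1447 and 1329 CPM in KO Opti, against 2596, 1882 and 2283 CPM in KO Norm, and 3298, 3317 and 2821 CPM in WT Opti, against 4440, 4501 and 4538 CPM in WT Norm. Col6a2 had 862, 1218 and 1138 CPM in KO Opti and 2438, 1948 and 2292 CPM in KO Norm, and 2873, 2916 and 2625 CPM in WT Opti and 4307, 4517 and 4597 CPM in WT Norm. Both fell with Opti by title in each genotype, and the knockout libraries lay below the wild type libraries of the same title. The interactions by title were -0.31 ± 0.20 for Col6a1, -0.38 ± 0.19 for Col6a2 and 0.05 ± 0.33 for Col6a3, none of them called, and by entry 1.34 ± 0.20, 1.73 ± 0.19 and 1.95 ± 0.34, all called. The sign for Col6a3 by title changed without KO Norm replicate 2, at -0.168. Among 16 tested genes of collagen VI and the basement membrane, 1 interaction was positive and 4 negative by title, against 11 positive by entry. None was negative by title with the Y-linked covariate, and 2 were without KO Opti replicate 1, KO Norm replicate 1, or WT Opti replicate 1 or 2. Nid2, nidogen of the basement membrane, lost its response under both readings, at 1.10 ± 0.22 and 2.02 ± 0.22.

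Adhesion genes were mixed. Of 31 integrin and adhesion genes, 8 were kept, 7 lost and 3 turned by title, and 9 turned and 9 lost by entry, while the interaction was positive for 8 and negative for 1 under both readings. Itgb1, the beta-1 integrin chain, had 469, 668 and 614 CPM in KO Opti, against 947, 798 and 776 CPM in KO Norm, and 569.8, 587 and 559 CPM in WT Opti, against 797, 846 and 676 CPM in WT Norm. It fell in both genotypes by title, and its interaction of -0.09 ± 0.19 was not called, nor stable in sign, at 0.175 with the Y-linked covariate. Sdc4, the heparan sulfate proteoglycan syndecan-4, lost its fall, with 128, 149 and 146 CPM in KO Opti and 119, 125 and 129 CPM in KO Norm, and 68.4, 65.9 and 71.9 CPM in WT Opti and 236, 204 and 213 CPM in WT Norm. Itga7, an integrin chain that binds laminin, turned, with 25.3, 22.8 and 26.5 CPM in KO Opti, against 39.7, 42.7 and 33.9 CPM in KO Norm, and 22.1, 25.9 and 21.4 CPM in WT Opti, against 6.75, 8.096 and 6.15 CPM in WT Norm, an interaction of -2.36 ± 0.18 by title and -1.08 ± 0.18 by entry. Of 44 motility and guidance genes, 11 had a positive and 8 a negative interaction by title, against 14.4% and 17% of all genes tested. The negative count was 5 without KO Opti replicate 1 or 3 or KO Norm replicate 2 or 3. It was also 5 without WT Opti replicate 2 or 3 or WT Norm replicate 3, and 3 with the Y-linked covariate. Rnd3, which opposes actomyosin contraction, had 134, 142 and 135 CPM in KO Opti and 102, 103 and 107 CPM in KO Norm, and 82.9, 77.8 and 85.4 CPM in WT Opti and 189, 217 and 166 CPM in WT Norm, an interaction of 1.60 ± 0.14 by title and 0.82 ± 0.14 by entry. Among 32 genes of PDGF, FGF and IGF signalling, 10 had a positive and 1 a negative interaction under both readings, against 4 positive on log2(FPKM + 1) and none negative with the Y-linked covariate.

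Among the kept genes with the largest wild type responses at a mean of at least 5 CPM was Slco2a1, a prostaglandin transporter. It had 2.36, 3.18 and 2.299 CPM in KO Opti, against 11.3, 11.2 and 12.4 CPM in KO Norm, and 2.33, 2.73 and 2.37 CPM in WT Opti, against 12.2, 16.6 and 6.17 CPM in WT Norm. The interaction of 0.08 ± 0.39 by title was near 0 and changed sign under other settings, and by entry it was 4.39 ± 0.40. Scara5, a ferritin receptor, and Cilp2, of the cartilage matrix, rose with Opti in each genotype by title. Scara5 had 16.9, 32.9 and 26.5 CPM in KO Opti and 8.897, 7.46 and 7.06 CPM in KO Norm, and 57.8, 55.9 and 44.6 CPM in WT Opti and 14.3, 12.6 and 8.61 CPM in WT Norm, with an interaction of -0.45 ± 0.32 that was not called. Cilp2 had 29.3, 35.4 and 34.6 CPM in KO Opti, against 8.42, 6.81 and 5.94 CPM in KO Norm, and 6.55, 8.75 and 7.58 CPM in WT Opti, against 1.58, 2.92 and 3.04 CPM in WT Norm. Its interaction of 0.62 ± 0.31 was not called on counts and was 0.935 and called on log2(FPKM + 1) (adjusted p = 0.00181), and 0.878 and called without WT Norm replicate 1 (adjusted p = 0.0159).

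Amplified responses were few. Serpina3n, a serine protease inhibitor, was among those with the largest negative interactions, with 3.11, 4.18 and 3.83 CPM in KO Opti and 17.03, 16.9 and 15.3 CPM in KO Norm, and 37.7, 29.1 and 31.4 CPM in WT Opti and 49.4, 48.9 and 55.6 CPM in WT Norm. KO Opti was lowest and WT Norm highest, and its fall was -2.14 ± 0.13 in knockout and -0.65 ± 0.12 in wild type cells, an interaction of -1.50 ± 0.18 by title and 2.79 ± 0.18 by entry. Cpxm1, a carboxypeptidase-like gene, had 17.04, 17.3 and 18.9 CPM in KO Opti, against 57.2, 57.01 and 53.9 CPM in KO Norm, and 99.98, 94.7 and 92.2 CPM in WT Opti, against 127, 106 and 118 CPM in WT Norm, an interaction of -1.37 ± 0.12 by title. Of the amplified genes that rose, Nrbp2 had 76.5, 49.9 and 59.6 CPM in KO Opti and 21.3, 19.1 and 19.6 CPM in KO Norm, and 42.3, 39.96 and 37.5 CPM in WT Opti and 31.98, 32.2 and 28.7 CPM in WT Norm. Its interaction was 1.26 ± 0.19 by title (adjusted p = 0.000284). The count of amplified genes by title ranged from 19 to 61 as single libraries were left out.

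Genes with a knockout response only included many of macrophages. Of 19 myeloid markers, 18 were lower in KO Opti than in KO Norm, against 3 higher and 2 lower in WT Opti, and the interaction was negative for 13 by title and positive for 16 by entry, none under both readings. Their summed level was 229 to 260 CPM in KO Opti, 657 to 714 CPM in KO Norm, 747 to 1310 CPM in WT Opti and 652 to 799 CPM in WT Norm, so KO Opti stood below all other libraries. In RNA from whole cultures, fewer cells of a type and less RNA per cell cannot be told apart. Fcgr3, an Fc receptor, had 2.94, 2.79 and 1.98 CPM in KO Opti, against 10.8, 11.4 and 9.62 CPM in KO Norm, and 19.5, 12.3 and 12.2 CPM in WT Opti, against 10.8, 14.2 and 13.7 CPM in WT Norm, an interaction of -2.23 ± 0.30 by title and 1.86 ± 0.29 by entry. C1qb and C1qc, parts of the first complement component made by macrophages, gave -2.14 ± 0.27 and -2.10 ± 0.26 by title. Lyz2, lysozyme, turned by title at -1.43 ± 0.17 in knockout and 0.73 ± 0.17 in wild type cells. Osteoclast markers, 7 tested of 9 listed, had 2 negative interactions by title, among them Acp5, tartrate-resistant acid phosphatase, at -1.17 ± 0.23.

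Xist was among the genes gained under both readings. It had an interaction of 2.46 ± 0.40 by title and -3.25 ± 0.41 by entry, with the group levels given above. Dnm3os, a noncoding RNA that hosts microRNAs of the skeleton, had 188, 65.9 and 108 CPM in KO Opti and 25.1, 29.1 and 21.8 CPM in KO Norm, and 28.6, 20.7 and 16.2 CPM in WT Opti and 32.2, 36.4 and 26.04 CPM in WT Norm. KO Opti replicate 1 was highest in Dnm3os, as it was in Xist and in the mitochondrial share. Snrpg, of the splicing machinery, and Sec61g, of the protein-conducting channel of the endoplasmic reticulum, were gained by title only, and both are uncertain because near-identical copies elsewhere could share their reads. Snrpg had 28.6, 9.596 and 16.2 CPM in KO Opti, against 6.06, 2.29 and 9.34 CPM in KO Norm, and 7.85, 6.401 and 7.09 CPM in WT Opti, against 13.1, 11.1 and 19.4 CPM in WT Norm. Sec61g had 67.2, 20.9 and 36.9 CPM in KO Opti and 11.98, 19.4 and 16.7 CPM in KO Norm, and 14.5, 16.4 and 20 CPM in WT Opti and 23.6, 25.3 and 48.2 CPM in WT Norm. KO Opti replicate 1 was highest in each, and neither was called with the Y-linked covariate (adjusted p = 0.118 for Snrpg and 0.143 for Sec61g). Wnt10b, a Wnt ligand of bone and fat lineages, was gained under both readings, with 49.4, 30.2 and 36.6 CPM in KO Opti, against 16.8, 16.6 and 18.5 CPM in KO Norm, and 12.4, 14.9 and 11.9 CPM in WT Opti, against 16.4, 18.5 and 17 CPM in WT Norm. The wild type response of Wnt10b was not called, and its interaction was 1.57 ± 0.23 by title.

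The 15 genes that the study's question turns on, chosen with results of these libraries known, were divided. By title 3 had a positive and 2 a negative interaction, and 5 were kept, 4 lost and 1 amplified. A single gene was negative with the Y-linked covariate, none without WT Opti replicate 3, and 1 was positive on log2(FPKM + 1). By entry 8 were positive and 1 negative, and 6 turned. Fgf2, a growth factor that binds NG2/CSPG4, lost its fall under both readings, with 24.3, 25.5 and 29.7 CPM in KO Opti and 24.3, 19.8 and 18.6 CPM in KO Norm, and 24, 24.4 and 20.6 CPM in WT Opti and 46.3, 42.96 and 36.4 CPM in WT Norm. Its interaction was 1.21 ± 0.19 by title and 0.52 ± 0.19 by entry. Prkca, the kinase that phosphorylates NG2/CSPG4, had 50.9, 65.4 and 59.5 CPM in KO Opti, against 83.2, 66.98 and 68.6 CPM in KO Norm, and 43.9, 41.9 and 37.9 CPM in WT Opti, against 84.8, 80.1 and 69.7 CPM in WT Norm, an interaction of 0.61 ± 0.17 by title (adjusted p = 0.0164) and 1.24 ± 0.17 by entry. It was not called by title on log2(FPKM + 1) (adjusted p = 0.115). Pdgfa, a ligand presented by NG2/CSPG4, was kept by title at -0.59 ± 0.17 in knockout and -0.97 ± 0.17 in wild type cells, with an interaction of 0.38 ± 0.24 that was -0.227 with the Y-linked covariate and called in neither. Pdgfra, its receptor, had no called response in either genotype, at 0.25 ± 0.16 in knockout and -0.04 ± 0.16 in wild type cells. Mapk3, the kinase ERK1, was amplified by title at -0.50 ± 0.14 (adjusted p = 0.015), and not called without WT Opti replicate 3 (adjusted p = 0.0585). Pcna, the sliding clamp of DNA replication, lost its fall by title, at 0.71 ± 0.19, and was open by entry. It was not called with the Y-linked covariate (adjusted p = 0.169) or on log2(FPKM + 1) (adjusted p = 0.0938).

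**Figure D5:**
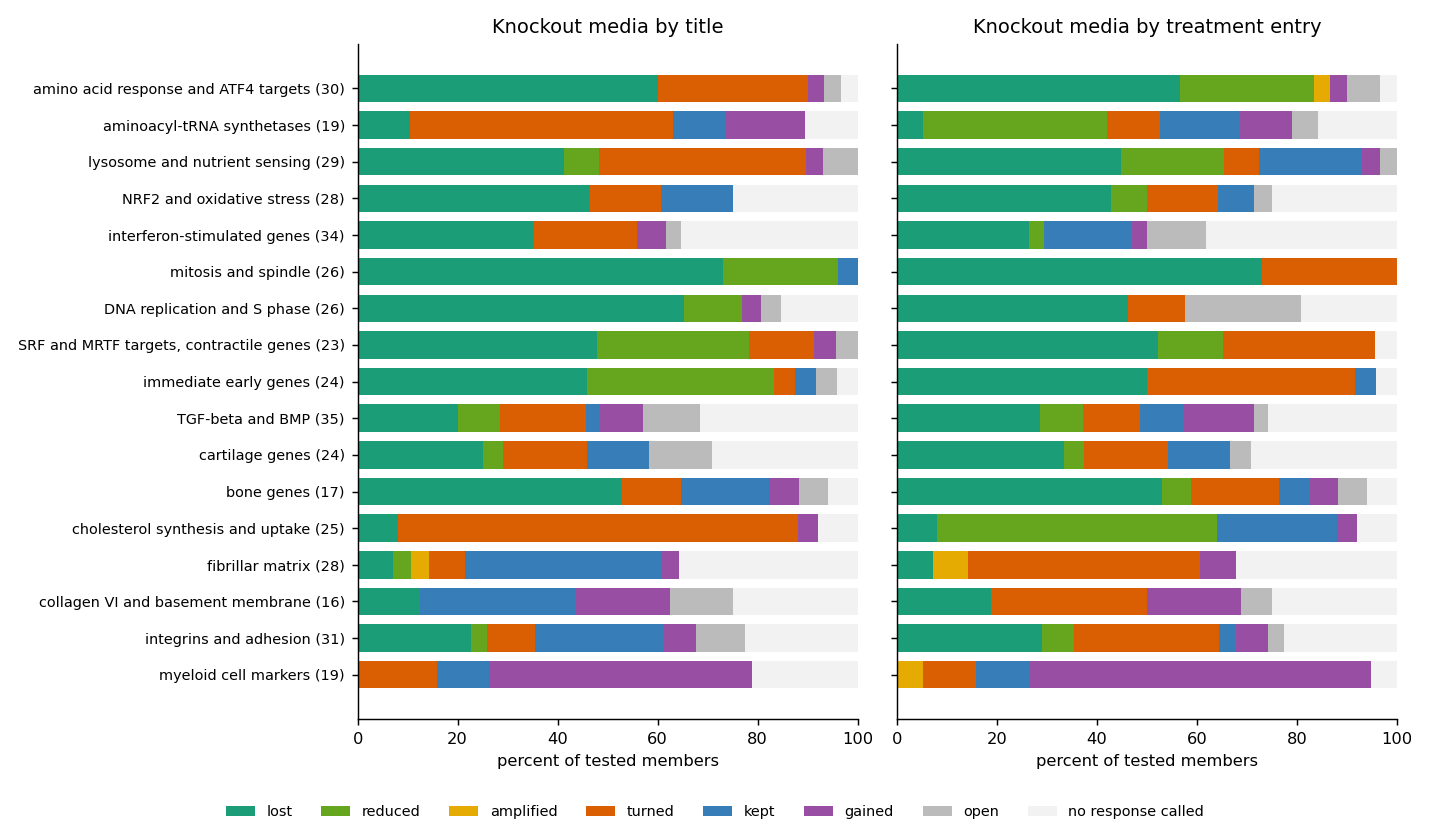
Share of the tested members of 17 gene lists in each class of medium response (percent of tested members; number tested in brackets), with the knockout media by title on the left and by treatment entry on the right. The lost shares of the ATF4 and mitosis lists are alike under the 2 readings, at 18 and 17 of 30 and at 19 and 19 of 26 genes, while cholesterol synthesis has 20 turned genes by title and 14 reduced and 6 kept by entry, and fibrillar matrix 11 kept genes by title and 13 turned by entry.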

How the data were processed

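Poly(A) RNA of the 12 libraries was sequenced after stranded TruSeq preparation as paired reads on an Illumina instrument. Per the study's methods and processing notes, the authors checked reads with FastQC, aligned them with HISAT2, assembled transcripts with StringTie and compared groups with edgeR, and they deposited 1 table with raw counts and FPKM (fragments scaled by transcript length and library size) for 31075 genes. Of the tools, versions were not given in the sources used here, nor was the genome build. The gene identifiers match GENCODE M21, so coordinates are those of GRCm38. The deposited counts were the main measure, and the FPKM values of the authors served in alternatives only.

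Counts were normalized by TMM and filtered with filterByExpr, which left 19118 genes, and fitted with edgeR 4.0.16 (R 4.3.3) as a quasi-likelihood model with 1 mean for each of the 4 groups over all 12 libraries. Contrasts were tested 2-sided with Benjamini-Hochberg adjustment over the 19118 genes at 0.05. CPM are counts scaled to a common TMM-adjusted library size, fold changes are log2, and errors are standard errors, given as ±. The biological coefficient of variation was 25.4%, and totals of 51546504 to 71448484 counts per library leave low genes the least precise. No libraries agreed within sampling noise. The model was tested on simulated counts. Libraries were grouped by title, and the treatment entries gave the second reading.

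Genes named in the text were, for each class by title and direction, the 5 with the largest interactions (for kept genes, wild type responses) at a mean of at least 5 CPM and with a symbol that is not a predicted gene or pseudogene, the 5 in each direction under both readings, the 2 genes per list that had the lowest adjusted p, and the 15 study genes. Not every one is named, some are not reported here, and further genes are marked as chosen after their values were seen. The members, gene lists and rules were chosen with earlier results of these data known. Alternatives were RLE factors, DESeq2 1.42.0, no filter on low counts, limma 3.58.1 on log2(FPKM + 1) and log2(FPKM + 0.1), a mean FPKM of at least 1, a replicate block, the Y-linked level as covariate, a threshold of 0.01 and leaving out each library. Gene lists under the settings other than RLE factors and log2(FPKM + 1), and the contrasts of the knockout mean with each wild type group, were added after seeing the data.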

Additional observations from a re-analysis of the deposited data

Results flagged for a closer look

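The medium response differed between knockout and wild type cells by the interaction test itself for 6007 genes by title and 6635 genes by treatment entry, with the same sign under both readings for 2714. Beyond these counts, the genes with the largest interactions under both readings stand out because the 2 genotypes' responses to the same change of medium differed by that test (edgeR's quasi-likelihood test with Benjamini-Hochberg adjustment). Positive interactions by title on the log2 scale were 5.90 for Cyp26b1, 5.97 for Acan, 4.49 for Lmod1, 4.45 for Slc8a3 and 4.44 for Frzb. Negative ones were -5.28 for Trib3, -5.11 for Hsd17b1, -5.75 for Car6, -4.07 for Cyb5r2 and -4.16 for Gadd45a. In all 10 genes the wild type response was called and the knockout response was not. Choosing genes by a large interaction under both readings favours this pattern, because exchanging the labels only turns the sign of the knockout response. The knockout mean of Trib3, Car6, Gadd45a and Frzb did not differ from WT Opti by the test, at -0.66, 0.26, -0.18 and -0.59, while it differed from WT Norm by 4.43, 5.34, 3.83 and -5.38. For the other genes this contrast is not given here. By CPM, every knockout library of Cyp26b1, Acan and Lmod1 lay above WT Opti, and every one of Trib3 and Slc8a3 below it.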

How the results depend on the processing

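Of the values for named genes under the alternatives, 2802 kept their direction and side of the threshold, 51 lost the call, 10 gained it and 12 changed sign. The cause of the changes was not tested. The direction of small interactions by title was not stable: Slco2a1 was -0.052 on log2(FPKM + 1), -0.128 on log2(FPKM + 0.1), -0.008 with the replicate block, -0.090 without KO Opti replicate 2, and -0.259 (without WT Norm replicate 2) to 0.387 over the libraries left out. Col6a3 was -0.092 without KO Opti replicate 2, -0.168 without KO Norm replicate 2, -0.067 without WT Opti replicate 3 and -0.046 without WT Norm replicate 2, with a highest value of 0.343. Itgb1 was 0.175 with the Y-linked covariate and 0.041 without KO Opti replicate 1, with a lowest value of -0.206 over the libraries left out, and Pdgfa was -0.227 with that covariate. The median over all genes was 0.11 in knockout and 0.18 in wild type cells on log2(FPKM + 0.1), and for the interaction by title it was 0.10 with RLE factors. Krt14, an epithelial gene at 93.5 CPM in WT Norm replicate 2 and at 0 to 3.1 CPM in the other libraries, had an interaction of 9.24 by title, and 4.91 and no call without that library (adjusted p = 0.134, edgeR). Of interaction counts of 1 to 3 genes in a list, 17 of 41 moved by over 1.5 times when a library was left out and 16 with the Y-linked covariate, against 7 and 15 of 39 counts of 4 to 10 genes and none and 5 of 25 larger ones.

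The interaction by title was called for 3508 genes, the knockout response for 1977 and the same sign under both readings for 1474 with the Y-linked covariate. With it the classes by title held 2354 lost, 57 reduced, 380 turned, 3968 open and 524 gained genes, and by entry 47 reduced, 687 turned and 302 kept. Without the low-count filter 31 genes were amplified by title and 15 by entry. On log2(FPKM + 1) there were 157 reduced, 27 amplified and 408 turned by title, and 112 reduced and 275 kept by entry. On log2(FPKM + 0.1) there were 151, 22 and 419 by title, and 101 and 299 by entry. At a mean FPKM of at least 1 the knockout response was called for 2272 genes, with 26 amplified, 388 turned and 543 gained by title and 117 reduced, 251 kept and 1268 open by entry. At a threshold of 0.01 there were 83 reduced, 8 amplified, 277 turned, 412 kept and 413 gained by title. Read by entry, 26 were amplified, 1161 turned and 543 kept.

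Leaving out each library gave 4816 to 6087 interactions by title, 5553 to 6623 by entry, 2131 to 2821 under both readings, 2091 to 4232 knockout responses and 6042 to 7858 wild type responses. Classes by title ranged over 2921 to 3684 lost, 135 to 290 reduced, 19 to 61 amplified, 410 to 805 turned, 566 to 924 kept, 1588 to 2851 open and 511 to 1061 gained. By entry they ranged over 3047 to 3929 lost, 88 to 216 reduced, 13 to 36 amplified, 730 to 1247 turned, 306 to 590 kept, 1422 to 2606 open and 583 to 1277 gained. The libraries that moved the knockout count by over 1.5 times were KO Opti replicates 1 and 3 and KO Norm replicates 2 and 3.

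The deviations of same-numbered libraries from their group means correlated at -0.198 to 0.151, against -0.166 to 0.175 for differently numbered libraries. These values gave no sign of pairing by replicate number. With 3 libraries a group they cannot exclude shared animals or cultures. With the replicate block the interaction by title was called for 5760 genes, by entry for 6453 and under both readings for 2632, and the knockout response for 3528 and the wild type response for 7277.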

Other observations

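Of 15 genes of MHC class I and the immunoproteasome, none rose and 4 fell in KO Opti and 8 rose and 2 fell in WT Opti, with 9 negative interactions by title and 5 under both readings. With the Y-linked covariate 2 were negative under both readings, and 3 were without KO Norm replicate 1 or WT Opti replicate 1 or 2. H2-Q4, a class I heavy chain, lost its response at an interaction of -2.09 ± 0.23 by title and -1.61 ± 0.23 by entry. Of 30 chemokine and inflammation genes, 5 fell and 3 rose in KO Opti and 13 fell and 1 rose in WT Opti, and 11 interactions were positive and 5 negative by title, against 7 and 2 with the Y-linked covariate. Ptgs2, the inducible cyclooxygenase, had 117, 95.3 and 103 CPM in KO Opti and 128, 126 and 126 CPM in KO Norm, and 43.97, 46.03 and 41.8 CPM in WT Opti and 183, 217 and 136 CPM in WT Norm. Its knockout groups lay close together, and the interaction was 1.76 ± 0.20 by title and 2.29 ± 0.20 by entry. Of 20 p53 targets, 5 had a positive and 9 a negative interaction by title, and 4 a negative one with the Y-linked covariate. Of 21 genes of the unfolded protein response, 4 were positive and 5 negative by title, against none and 3 with the Y-linked covariate. Among all genes tested, 14.4% were positive and 17% negative by title. Hspa5, the chaperone BiP, lost its response at -1.57 ± 0.18 by title and -0.87 ± 0.18 by entry.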
